A study of Danio rerio with 4 samples.

Results

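Intervals bound by Sox2 and Pou5f1 were mapped beside 8 target genes of Fgf signalling in zebrafish embryos. The genes were the Ets factor genes etv4, etv5a and etv5b, the Sprouty genes spry2 and spry4, the dual-specificity phosphatase genes dusp6 and dusp4, and il17rd, also known as sef. An interval was taken for a gene when either of the 2 flanking genes listed with it was that gene. The 3 chromatin immunoprecipitation (ChIP) lists named these genes beside 35 of 6129 Sox2 intervals. They did so beside 39 of 7130 Pou5f1-Flag intervals at late blastula, and beside 24 of 7747 at the 512-cell stage. The list of Input chromatin, the control, named 3 of the genes beside 3 of its 1901 intervals.

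Fgf ligands bind receptor tyrosine kinases and act through Ras and the MAP kinase cascade. The Ets factors Etv4, Etv5a and Etv5b carry the signal to the genome and are themselves induced by it, while Sprouty proteins, Dusp6 and Il17rd (Sef) are induced inhibitors that dampen the same pathway. In the zebrafish blastula Fgf signalling is active on the dorsal side and around the margin, where it takes part in mesoderm formation and in dorsoventral patterning. Sox2 is a transcription factor of the SoxB1 group, and Pou5f1 belongs to the POU family of mammalian Oct4.

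Each group was a single sample. An anti-Sox2 antibody was used on wildtype embryos at late blastula, and Input came from wildtype embryos of that stage. Pou5f1-Flag was precipitated with an anti-FLAG M2 antibody at late blastula and at the 512-cell stage from MZspg embryos, maternal-zygotic mutants of the Pou5f1 gene spg, after microinjection of Pou5f1-Flag mRNA. The protein measured was therefore the injected, tagged one, and nuclei were pooled. For late blastula the labels describe injection at the 1-cell stage, with the least amount that restores the mutants. The Pou5f1-Flag libraries were sequenced as technical duplicates, which are not separate samples. The 512-cell sample held 2000000 nuclei and the other samples 20000000. With no replicate, no difference between groups was tested. Read counts are those inside an interval, given by the authors, and were compared only within a list. The library totals are not given, so a gene without an interval was not listed at this depth, which does not show that it was unbound. Positions are Zv9, counted from 1, and for the 512-cell list, which names no build, Zv9 was assumed. Ranks are by reads among the intervals of a list that overlap no Input interval (Input-free), which numbered 5924 in the Sox2 list. The Pou5f1-Flag lists held 6670 of them at late blastula and 7573 at 512 cells.

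All 8 genes were named beside a Sox2 interval and all 8 beside a late blastula Pou5f1-Flag interval. Of the 9679 genes named in any list, 51.2% had an Input-free interval of Sox2 and 54.1% one of Pou5f1-Flag at late blastula. The 512-cell list named 6 of the 8 genes, against 72.4% of all genes, and did not name etv5b or dusp4. Input named spry2, spry4 and etv5a, against 9.39% of all genes. None of the intervals beside the 8 genes overlapped an Input interval (0 of 98). Few did in the whole lists, 205 of 6129 for Sox2, 460 of 7130 for late blastula Pou5f1-Flag and 174 of 7747 at 512 cells. The Input sample was not matched to the Pou5f1-Flag samples in genotype, nor to the 512-cell sample in stage. The Input intervals held 46 reads for spry2, 528 for spry4 and 66 for etv5a, and the closest of them to an interval of the same gene was 46.1 kb away, at spry2. Input was listed at looser limits than the ChIP lists. These Input intervals had Wilcoxon filter p-values of 0.975, 0.620 and 0.314 in the same order. No interval of a ChIP list exceeded 0.0500 in that filter. The false discovery rates of these Input intervals were 8.29%, 2.32e-15% and 0.0201% in the same order, and those of ChIP intervals reached 2.83%. By that measure only the Input interval of spry2 fell outside the range of the ChIP lists. Each of the 8 genes was thus named by at least 2 ChIP lists.

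The intervals formed 78 loci after merging those that overlapped by at least 1 bp in any of the ChIP lists. Each of the 8 genes had at least 1 locus held by both the Sox2 and the late blastula Pou5f1-Flag list, which was so for 22.3% of all genes named. Etv4, spry4, dusp6 and il17rd had a locus in all 3 ChIP lists, that is 4 of the 8 genes against 7.74% of all genes. Counted by locus, 14 of the 78 were in both late blastula lists (17.9%, against 9.72% of all Input-free loci) and 4 were in all 3 lists (5.13%, against 2.21%). The remaining 64 were in a single list. Most of the 16960 Input-free loci were as well, 4089 in the Sox2 list alone, 4036 in that of late blastula Pou5f1-Flag and 6620 in the 512-cell list. Genes with many intervals have more chances to share a locus, and several of these genes had many. The shares of genes are over all genes named in any list, Input included. Of those, 24.9% were named by all 3 ChIP lists, against 6 of the 8 genes, and the shares were not matched for this.

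**Figure D1:**
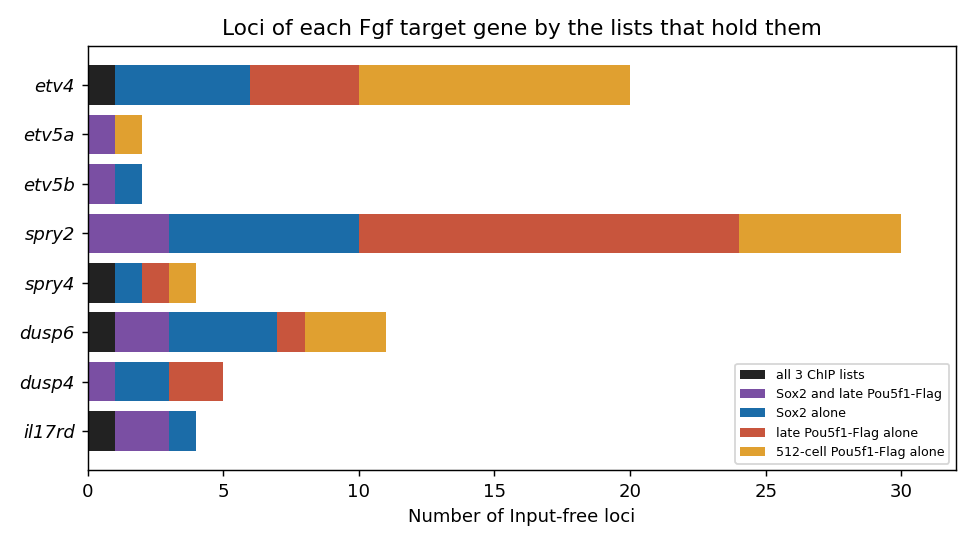
Number of Input-free loci (horizontal axis) of each gene (vertical axis), coloured by the ChIP lists that hold them. Spry2 had 30 loci and etv4 had 20, most of them in 1 list, while etv5a and etv5b had 2 each. Dark segments mark the 4 loci in all 3 lists.

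The Ets gene etv4 carried the locus with the best 512-cell rank of the 78. It lay on chromosome 12, 29124018 to 29124643 in the Sox2 list, where it held 406 reads (211 forward and 195 reverse) and ranked 86. The late blastula Pou5f1-Flag interval began at the same base, ended at 29124567, held 148 reads (80 forward and 68 reverse) and ranked 180. The 512-cell interval ran from 29123904 to 29124722, held 334 reads (165 forward and 169 reverse) and ranked 12. Its centre was 17.5 bp from that of the Sox2 interval and 20.5 bp from that of late blastula Pou5f1-Flag. The position thus stood in the strongest 3% of every ChIP list, with reads evenly divided between the strands.

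The gene columns of the lists differ at this locus. Both late blastula lists named etv4 and ogfod3, whereas the 512-cell list named meox1 and ogfod3, the genes farther out on either side. A further 3 intervals of the 512-cell list within 100 kb of etv4, with 41 to 52 reads, also named meox1 and ogfod3. By the names alone, the strongest 512-cell interval of etv4 was another one, with 93 reads at rank 818, 702 kb from the gene. The value of 334 reads is therefore given for the position and not for the gene name.

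To place intervals relative to a gene, the stretch was found in which its name passes from the second gene column, which holds the neighbour at higher coordinates, to the first. This stretch is called the listed place of the gene. It was 1.52 kb wide for etv4, 2.96 kb for dusp4, 4.06 kb for spry2 and 7.95 kb for il17rd. It was wider for dusp6 (24.1 kb), spry4 (31.9 kb) and etv5a (50.0 kb), and 73.0 kb for etv5b, which was named on its higher side alone. Etv5a was named on its lower side alone. For etv5a and etv5b the stretch ran instead from the last interval that named the gene to the next one of any list that did not. Distances of intervals at an edge of the stretch follow largely from its width. Distances are from the middle of this stretch to the middle of an interval, so those of the last 4 genes are coarse. The position of intervals relative to exons and introns was not analysed here.

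The shared etv4 locus lay 16.2 kb above the listed place. Another 4 Sox2 intervals lay between 10.2 kb below and 10.6 kb above it, with 30 to 99 reads. Late blastula Pou5f1-Flag had intervals of 26 and 47 reads 17.0 and 0.907 kb below it, neither of them in the Sox2 list, and 2 more of 31 and 47 reads on the other side, 78.9 and 111 kb away. Of the 10 intervals that the 512-cell list named for etv4, 9 lay beyond 100 kb, up to 736 kb away, in the long stretch towards ogfod3, and none of the 10 was in another list. In the order of genes of the GRCz12tu annotation, 6 protein-coding genes stand between etv4 and ogfod3, so the flanking name need not be the nearest gene there.

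Etv5a, a paralogous Ets gene, had a single interval in each ChIP list. The Sox2 interval on chromosome 9, 23594679 to 23595305, held 418 reads (200 forward and 218 reverse) and ranked 76, the best rank that any of the 8 genes had in the Sox2 list. Late blastula Pou5f1-Flag held 63 reads there (38 forward and 25 reverse) at rank 1509, with centres 75 bp apart. This shared locus lay 93.5 kb below the middle of the listed place, and its other flanking gene was crygs3. In the GRCz12tu annotation 1 protein-coding gene stands between crygs3 and etv5a, so the nearest gene is not known from the lists. The 512-cell list had no interval at that position and named etv5a beside a different one, 23663248 to 23663540, with 52 reads at rank 3633. The Sox2 position was thus among the foremost of its list, and the Pou5f1-Flag intervals beside etv5a were not.

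Etv5b showed the opposite order of ranks. On chromosome 6, the Sox2 interval from 13967873 to 13968283 held 113 reads (65 forward and 48 reverse) and ranked 1343. The late blastula Pou5f1-Flag interval from 13967924 to 13968543 held 152 reads (77 forward and 75 reverse). It ranked 166, the best rank by reads of the 8 genes in that list. By reads per kb of interval, etv4 stood ahead of etv5b there, at 2.22% against 3.37%. A second Sox2 interval held 29 reads, 36.6 kb above the middle of the listed place where the first was 53.9 kb above it. No 512-cell interval named etv5b. The list had 2 intervals within 100 kb below the gene, with 43 and 52 reads, which named dnpep and mir153b and were in no other list.

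**Figure D2:**
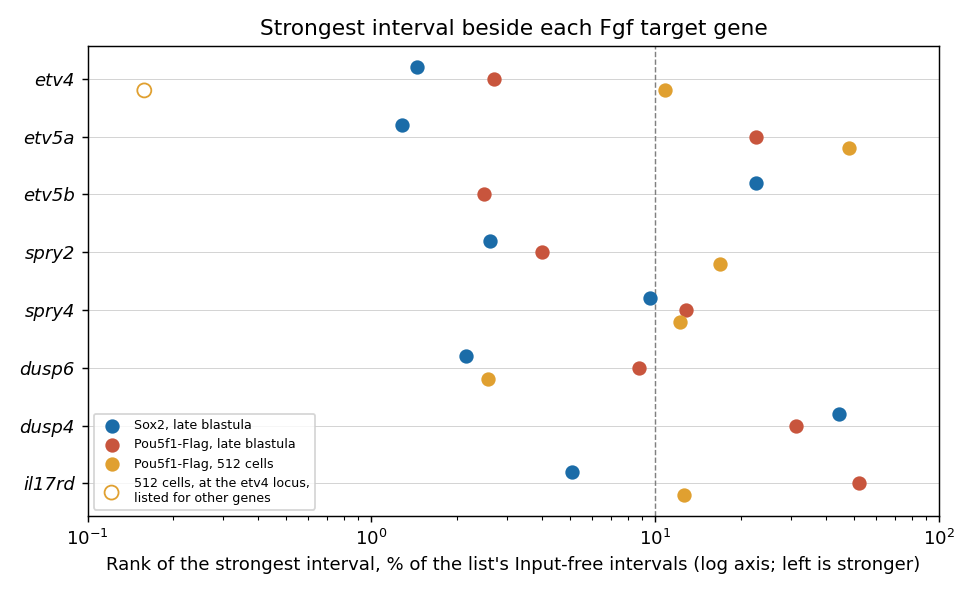
Rank of the strongest Input-free interval that names each gene, as a percentage of the Input-free intervals of its list (horizontal log axis, further left is stronger), for the 3 ChIP lists. The dashed line marks 10%. The spry2 points of both Pou5f1-Flag lists and the filled etv4 point at 512 cells are of intervals more than 100 kb from the gene. The open circle is the 512-cell interval at the etv4 locus, which that list names for other genes. Sox2 points lie left of the line for 6 of 8 genes, and etv5b is the gene whose Pou5f1-Flag point lies farthest left of its Sox2 point.

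Spry2, which encodes a Sprouty inhibitor of receptor tyrosine kinase signalling, had the most Sox2 intervals of the 8 genes. All 10 lay within 84.4 kb on chromosome 1, from 4141859 to 4226298, and only 1.62% of the genes named by Sox2 had as many loci. The strongest held 336 reads (156 forward and 180 reverse) from 4165981 to 4166735, 7.89 kb below the listed place, and ranked 155. It had no Pou5f1-Flag interval in either list. The next held 276 reads from 4176273 to 4176815, 2.30 kb above the listed place, with 168 forward and 108 reverse reads. Late blastula Pou5f1-Flag held 85 reads there at rank 797, with centres 33 bp apart.

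Late blastula Pou5f1-Flag shared 2 more positions of this group. At 4212517 to 4212974 Sox2 held 202 reads and Pou5f1-Flag 55, and at 4170721 to 4171011 the values were 41 and 37. One Pou5f1-Flag position above the gene was without Sox2. It was listed in both passes of the deposited list, with 42 and 100 reads, and lay at 4224062 to 4224579, between Sox2 intervals of 73 and 106 reads. So 3 of 10 Sox2 intervals had a late blastula Pou5f1-Flag partner, near the 28.0% of all Input-free Sox2 intervals that had one.

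The 512-cell list held no interval within 100 kb of spry2 under any gene name. Its 6 intervals for spry2 held between 43 and 77 reads, and the closest was 379 kb below the gene. Late blastula Pou5f1-Flag also had 11 intervals more than 100 kb below spry2, up to 1237 kb away, and these included the strongest it listed for the gene (130 reads at rank 265, chromosome 1, 2936910 to 2937582). No Sox2 interval lay in this stretch, which is bounded by the microRNA gene mir92a-1, and none of the Pou5f1-Flag intervals of the 2 stages there overlapped. The closest pair, at 3794131 to 3794661 (84 reads) and 3794882 to 3795220 (77 reads), was separated by less than 500 bp. In the GRCz12tu annotation 5 protein-coding genes stand between mir92a-1 and spry2.

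Spry4, a further Sprouty gene, had a locus in all 3 ChIP lists. On chromosome 21, Sox2 held 192 reads from 43170077 to 43170590 (90 forward and 102 reverse, rank 567). Late blastula Pou5f1-Flag held 80 reads from 43170218 to 43170610 (35 forward and 45 reverse, rank 913). The 512-cell interval from 43170236 to 43170510 held 88 reads (48 forward and 40 reverse, rank 926). All 3 fell within the strongest 14% of their lists. The lists named spry4 and ammecr1 there, and 12 protein-coding genes stand between these in the GRCz12tu annotation, so the nearest gene above the locus is not known from the lists. Of the other spry4 intervals, each list had 1 of its own. Sox2 held 163 reads at 43181413 to 43181962, late blastula Pou5f1-Flag 82 reads at 43137668 to 43138197, named with the ligand gene fgf1b, and the 512-cell list 71 reads at 43232850 to 43233142.

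Dusp6 encodes a phosphatase that removes activating phosphates from MAP kinases. Its strongest position was the same in every ChIP list, on chromosome 25. Sox2 held 366 reads from 18820299 to 18821000 (162 forward and 204 reverse, rank 128). Late blastula Pou5f1-Flag listed it in both passes, with 72 reads (34 forward and 38 reverse) and 96 reads (42 forward and 54 reverse, rank 583). The 512-cell interval from 18820399 to 18820941 held 161 reads (61 forward and 100 reverse, rank 195). Between lists the centres differed by at most 43.5 bp. The locus lay 13.7 kb above the listed place, and reverse reads exceeded forward reads in all 4 intervals.

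A second strong Sox2 interval lay on the other side of dusp6, from 18794151 to 18794909, with 284 reads (148 forward and 136 reverse, rank 250). Late blastula Pou5f1-Flag held 63 reads in its upper part (31 forward and 32 reverse, rank 1509). The centres were 185 bp apart, the widest offset among the shared loci. Both late blastula lists named cep290 and dusp6 there, and 3 protein-coding genes stand between these in the GRCz12tu annotation. The nearest gene below this position is therefore not known from the lists. The other shared position, 18883113 to 18883554, had 160 Sox2 reads and 33 Pou5f1-Flag reads. The 512-cell list had intervals of 38 and 53 reads beside the strong 2 positions, which overlapped no interval of late blastula. The remaining 4 Sox2 intervals of dusp6 held 36 to 85 reads and were in no other list.

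Dusp4, which encodes a nuclear MAP kinase phosphatase, had weak intervals throughout. On chromosome 21, Sox2 held 69 reads from 18997276 to 18997625 at rank 2619, and Pou5f1-Flag of late blastula held 28 reads there at rank 5303. This was its one shared locus. The strongest Pou5f1-Flag position, 18951568 to 18951922, was listed in both passes with 52 and 44 reads, 1.65 kb above the listed place, and had no Sox2 interval. A Sox2 interval of 47 reads lay 1.62 kb below the listed place. The nearest 512-cell interval under any name was 262 kb away. By reads, dusp4 was the only one of the 8 genes without an interval in the strongest 30% of any list. Its best value was 31.4%, in late blastula Pou5f1-Flag, and it became 29.0% there when reads were divided by interval length.

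Il17rd encodes Sef, a transmembrane inhibitor of Fgf signalling. It had 4 Sox2 intervals on chromosome 11 with 125 to 265 reads, and 3 of them had a late blastula Pou5f1-Flag interval. The strongest, 43726533 to 43727132 (135 forward and 130 reverse reads, rank 301), had none. At 43723662 to 43724110 Sox2 held 182 reads and Pou5f1-Flag 34, and at 43756501 to 43756951 the values were 132 and 38. The position in all 3 lists, between hesx1 and il17rd, held 125 Sox2 reads (43715213 to 43715605, rank 1159), 30 late blastula Pou5f1-Flag reads (rank 4939) and 87 512-cell reads (43715275 to 43715708, rank 953). Hesx1, a homeobox gene of the anterior nervous system, flanks this position as well, so it cannot be assigned to either gene from the lists.

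**Figure D3:**
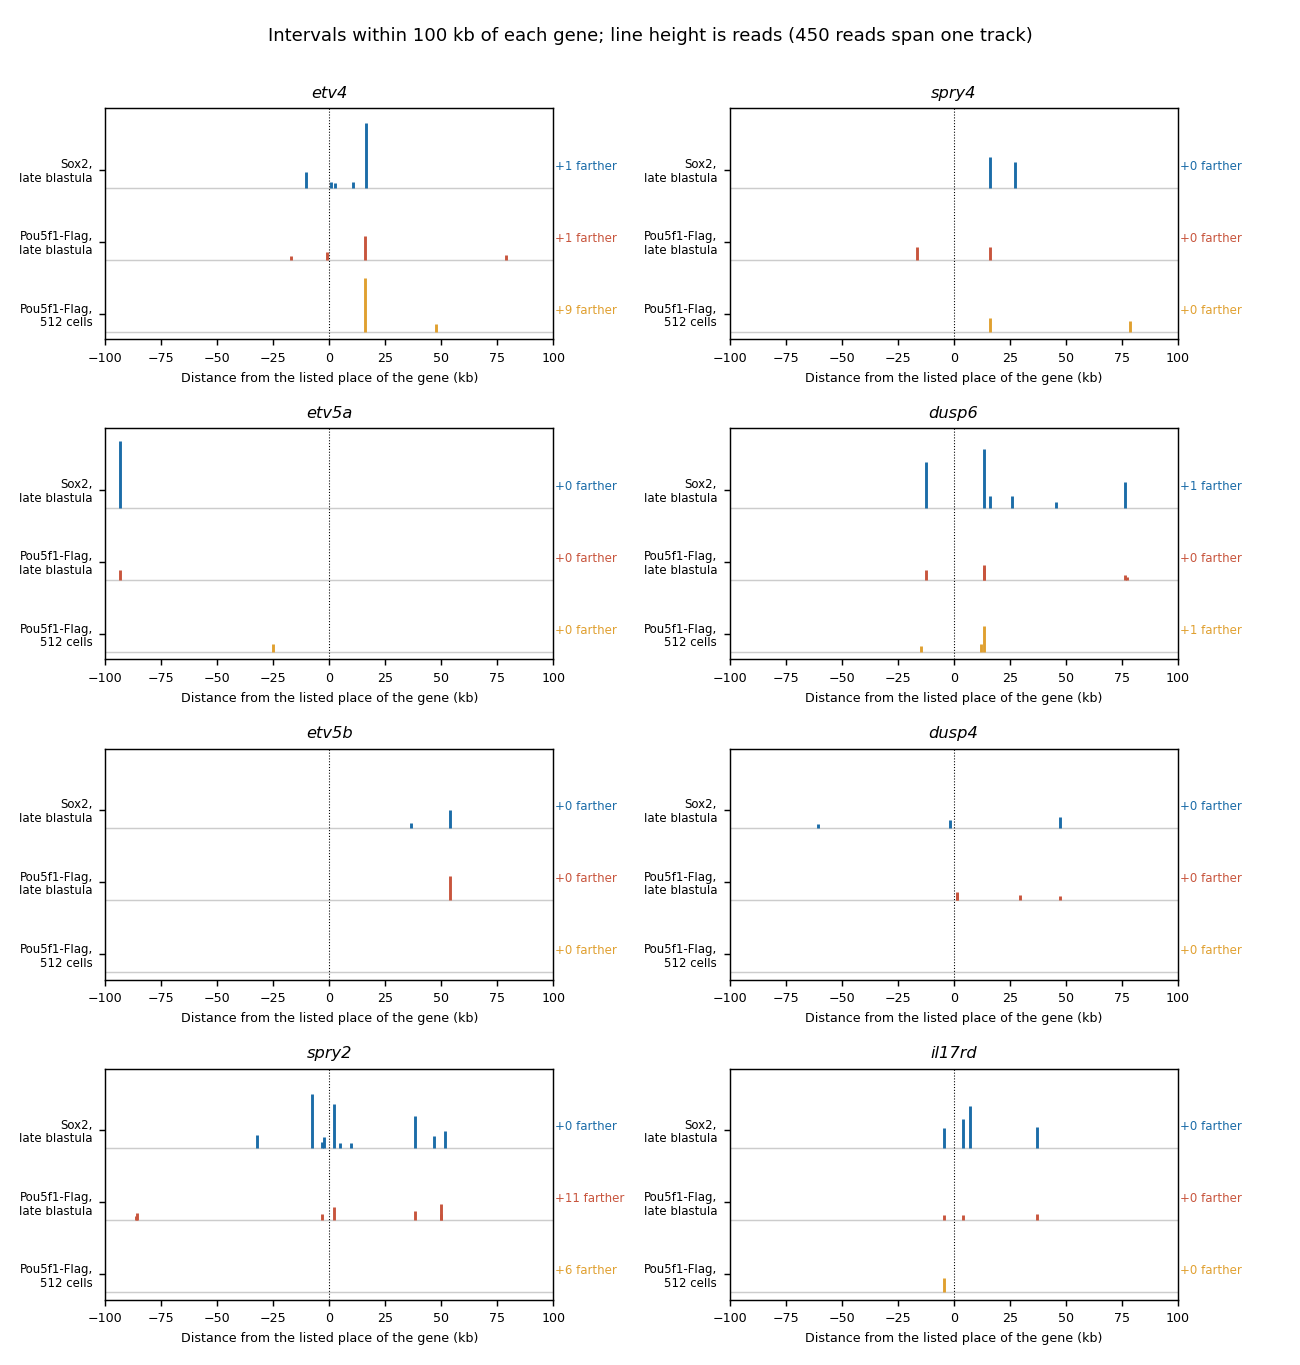
Intervals at the loci of each gene within 100 kb of its listed place (horizontal axis, distance in kb), in 3 tracks for the ChIP lists, with line height proportional to reads. Numbers at the right of a track count intervals farther away. The 512-cell line at the etv4 locus is the interval of 334 reads that its list names for other genes. The spry2, etv5b and dusp4 panels have no 512-cell line.

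The distance of intervals differed between the lists. For Sox2, 33 of 35 intervals (94.3%) lay within 100 kb of the listed place, with a median of 16.2 kb. For late blastula Pou5f1-Flag these were 27 of 39 (69.2%, median 50.1 kb), and for the 512-cell list 8 of 24 (33.3%, median 364 kb). These values count only intervals that name the gene. Under other gene names, the 512-cell list had 7 more within 100 kb of the listed places, 4 of them at etv4, late blastula Pou5f1-Flag had 4 and Sox2 had 2. Over all genes with a listed place of at most 50 kb, the shares were 82.0%, 76.4% and 69.6% in the same order. This limit selects genes with an interval of some list close on either side. The shares of the 8 genes include etv5a and etv5b, each named on a single side, so the sets compared are unlike. Of the 78 loci, 30 lay beyond 100 kb, and each of them was in a single list, as were most of all Input-free loci at any distance. All but 2 of the 30 were at etv4 and spry2, and the others were at dusp6. The 14 shared loci all lay within 100 kb.

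**Figure D4:**
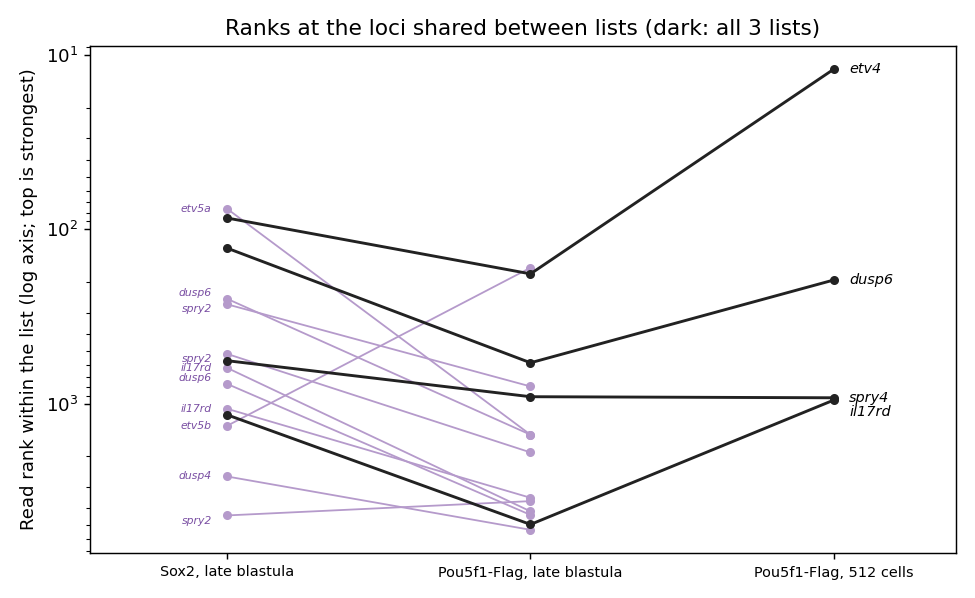
Read rank within each ChIP list (vertical log axis, strongest at the top) at the 14 loci held by more than 1 list, joined by a line per locus. Dark lines are the 4 loci in all 3 lists, labelled at the right. From Sox2 to late blastula Pou5f1-Flag the lines run down except for etv5b and the weakest shared spry2 locus, and the etv4 line reaches rank 12 at 512 cells.

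Of the 35 Sox2 intervals, 14 (40.0%, exact 95% interval 23.9 to 57.9) were shared with late blastula Pou5f1-Flag, against 28.0% of all Input-free Sox2 intervals. In the other direction 15 of 39 (38.5%, 23.4 to 55.4) were shared, against 31.0%. With the 512-cell list, 4 Sox2 intervals (11.4%, 3.20 to 26.7, against 9.32%) and 5 late blastula Pou5f1-Flag intervals (12.8%, 4.30 to 27.4, against 14.2%) were shared. Of the 24 intervals that the 512-cell list named for these genes, 3 (12.5%, 2.66 to 32.4) were shared with each late blastula list, against 7.33% for Sox2 and 10.2% for Pou5f1-Flag. The intervals cover counting error only and take neighbouring intervals of a gene as independent. Positions that both passes of late blastula Pou5f1-Flag list, at spry2, dusp6 and dusp4, are also counted once per pass. The dusp6 one is among the shared. Each of the 95% intervals contains the share of the whole list.

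Shared intervals of these genes held more reads than unshared ones. For Sox2 the shared intervals had 41 to 418 reads (median 187) and the others 27 to 336 (median 67). For late blastula Pou5f1-Flag the ranges were 28 to 152 (median 63) and 18 to 130 (median 51.5), and for the 512-cell list 87 to 161 (median 88) and 35 to 93 (median 53). The ranges overlapped in every list. The shared intervals numbered 14, 15 and 3 in these lists, with the dusp6 locus counted once per pass in the 15. The same comparison over the whole lists was not made, so the difference is not shown to be particular to these genes. Centres of shared intervals were a median of 38.0 bp apart between Sox2 and late blastula Pou5f1-Flag over 15 pairs, against 36.5 bp over all 2074 such pairs of the lists.

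The strongest interval of a gene fell in the strongest 10% of the list for 6 of 8 genes in Sox2, the exceptions being etv5b and dusp4. This was so for 18.4% of all genes that Sox2 named. For late blastula Pou5f1-Flag it was 4 of 8 (etv4, etv5b, spry2 and dusp6), against 18.3%, and for the 512-cell list 1 of 6 (dusp6), against 17.1%, not counting the etv4 position at rank 12, which that list names for other genes. The median rank of the members was 3.85% in Sox2, 10.8% in late blastula Pou5f1-Flag and 12.4% in the 512-cell list, and over all named genes 36.4%, 37.0% and 34.1%. These ranks take intervals at any distance, and those of spry2 in both Pou5f1-Flag lists and of etv4 at 512 cells lay beyond 100 kb. A gene with many intervals has more chances of a strong one. Spry2, etv4 and dusp6 had more loci than the median gene in each ChIP list, and neither these medians nor the shares above were matched for this. Some ranks of the members' strongest intervals moved by over 1.5 times when reads were divided by the length of the interval. At 512 cells spry4 moved from 12.2% to 2.43%, il17rd from 12.6% to 36.1%, etv4 from 10.8% to 17.1% and dusp6 from 2.57% to 4.33%. In late blastula Pou5f1-Flag spry2 moved from 3.97% to 9.12% and dusp6 from 8.74% to 3.78%. In Sox2 dusp6 moved from 2.16% to 3.87% and spry2 from 2.62% to 4.27%. When intervals that overlap Input were ranked too, etv4, etv5b and spry2 in late blastula Pou5f1-Flag moved to 5.08%, 4.88% and 6.49%. Dusp6 moved from 8.74% to 11.4% there, which left 3 of 8 genes in the strongest 10% of that list.

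Other genes with like ranks were found over the 2408 genes named by all 3 ChIP lists, by the Euclidean distance of the 3 percentage ranks. Closest to dusp6 were fga and lratb.2, which flank the same intervals (0.735 percentage points away, with 358 reads in the Sox2 list, 99 at late blastula and 163 at 512 cells). Closest to etv4, by the intervals that name it, was kcng1 (0.813 points, 431, 141 and 91 reads) and then dnajc19 (1.34 points). For spry2 these were sulf1 (1.49 points) and znf800b (1.78 points), and for spry4 prrc1 and slc12a2 (1.96 and 1.99 points). For il17rd they were zic6, a zinc finger gene of the Zic family, at 1.84 points (232, 38 and 86 reads) and si:ch211-244b2.4 at 3.96 points. Those of etv5a were rasgef1ba and txnipa (3.16 and 4.10 points).

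Other genes of the pathway and of the Ets, Sprouty, Dusp and Il17r families were taken from a list of 118 genes, of which 73 were named in any peak list. Sox2 named 39 of them (53.4%), late blastula Pou5f1-Flag 44 (60.3%), the 512-cell list 59 (80.8%) and Input 3, with 22 (30.1%) in all 3 ChIP lists. Of all genes, 51.2%, 54.1%, 72.4% and 9.39% were named by these lists in turn, and 24.9% by all 3 ChIP lists. Of 21 named Fgf family genes among the 118, not all of which encode secreted ligands, 10 had a Sox2 interval. Late blastula Pou5f1-Flag had one at 15 of them and the 512-cell list at 18. These counts and the totals above leave out fgf1b, which late blastula Pou5f1-Flag named with spry4. Of 7 receptor genes the counts were 6, 4 and 5. They were 8, 9 and 14 of 16 adaptor, kinase and other pathway genes, and 8, 7 and 8 of 13 other Ets genes. Of the 4 other Sprouty and Spred genes they were 2, 2 and 4, of 11 other Dusp genes 5, 7 and 9, and the 1 other Il17r gene was named at 512 cells alone.

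The strongest of these in the Sox2 list were the receptor gene fgfr1b (614 reads, rank 21) and the ligand genes fgf17 (494 reads) and fgf8a (449 reads). In the late blastula Pou5f1-Flag list they were dusp14 (1016 reads, Input-free rank 1), fgf11a (219 reads) and the receptor gene fgfr2 (194 reads). None of these late blastula intervals had a Sox2 partner. In the 512-cell list they included the Sprouty gene spry1 (249 reads, rank 31) and fgf8a (177 reads). The spry1 position on chromosome 14 was in all 3 lists, with 239 Sox2 and 110 late blastula Pou5f1-Flag reads.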

How the data were processed

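The deposited files are the authors' peak lists, 1 per sample. Per the file headers, each interval carries read counts in total and per strand. The authors' other columns are the false discovery rate, in percent, a Wilcoxon filter p-value and the strand difference as a fraction of the reads. Per the submitters' processing notes CASAVA was used. The aligner, peak caller and thresholds were not given in the sources used here. False discovery rates reached 2.83% in the Sox2 list, 2.77% and 2.47% in the Pou5f1-Flag lists of late blastula and 512 cells, and 23.5% in Input. Interval identifiers of the late blastula lists name Zv9. The 512-cell list names no build, and Zv9 was assumed, since 784 of its 836 intervals that overlap late blastula Pou5f1-Flag share a flanking gene with it (93.8%). The late blastula Pou5f1-Flag list has 2 passes through the chromosomes, of 1217 and 5913 intervals, and both were kept.

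Starts were moved to counting from 1. RefSeq accessions were turned into symbols with a GRCz12tu table used for names and gene order alone (92.0% to 95.6% of accessions matched). Intervals overlapping Input by 1 bp were left out, and the rest were merged into 16960 loci. Shares have exact 95% binomial intervals. Python 3.11.15, pandas 2.3.3 and scipy 1.17.1 were used, and merging was tested on simulated data. The members, gene lists and alternatives were chosen with earlier results of these data known. Named were all 8 genes with the strongest interval in each list and the loci in all 3 lists, the 3 strongest pathway genes per list, and the 2 genes nearest in rank; 1 pathway gene that the rule names is not reported here. Other positions given were chosen after their values were seen, as was the distance of 100 kb.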

Additional observations from a re-analysis of the deposited data

How the results depend on the processing

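Of 13 counts, the 10 of genes named and loci shared stayed within 1.5 times when Input overlaps were kept. So did the 3 counts of genes in the strongest 10% with all intervals ranked, the 4 run on the second pass alone, and the 3 of genes named with positions of another list counted. The shared loci stayed so with overlap of 50% of the shorter interval, centres within 100 bp or gaps up to 500 bp, and 7 counts with the limit of 100 kb, added after seeing the data. Some of these counts could not have moved. No interval beside the 8 genes overlapped Input, so keeping Input overlaps could not change how many of them were named. All 14 shared loci lay within 100 kb, so that limit could not change the counts of shared loci. Counting positions of another list could only add genes. Other combinations were not run. With a false discovery rate of at most 1%, the 512-cell list named 3 of the genes in place of 6, loci in all 3 lists numbered 1 in place of 4, those of Sox2 with late blastula Pou5f1-Flag 9 in place of 14, and those of the 512-cell list with either late blastula list 1 in place of 4. With the first pass of late blastula Pou5f1-Flag alone, 4 genes were named in place of 8 and 1 locus was shared with either other list, or with both. With the stronger 50% of each list, Sox2 and late blastula Pou5f1-Flag shared 8 loci, and late blastula Pou5f1-Flag named 27 pathway genes in place of 44. By reads per kb, 2 genes in place of 1 reached the strongest 10% at 512 cells. Each of these alternatives but the last has fewer intervals by construction. No paired analysis was possible because each group has 1 sample. Depth limits what an absent interval shows, and the 512-cell sample had the fewest nuclei.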

Other observations

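A position at the upper edge of the listed place of etv5a was in all 3 ChIP lists although no list named etv5a there. Its start set that edge, so its 25.2 kb from the middle reflects the width of the stretch and not a measured distance from the gene. On chromosome 9, 23713530 to 23713954, Sox2 held 128 reads, late blastula Pou5f1-Flag 80 and 60 reads in its 2 passes, and the 512-cell list 69 reads. The late blastula lists named itgb5 and tnfaip6, and the 512-cell list rbm44 and tnfaip6. Beside il17rd, a Sox2 interval of 250 reads (chromosome 11, 43712564 to 43713141, rank 345) named appl1 and hesx1 and had no Pou5f1-Flag interval.

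Other genes of the pathway and of these families also stood at loci in all 3 ChIP lists, 7 of the 73 named (9.59%), against 7.74% of all genes. The dusp1 locus on chromosome 14 held 405 reads in the Sox2 list, 98 in that of late blastula Pou5f1-Flag and 143 in the 512-cell list. The fgfr1b locus on chromosome 10 held 614, 166 and 86 reads in the same order. Shisa2a, whose family retains Fgf and Wnt receptors inside the cell, had 2 such loci on chromosome 5, with 264, 107 and 163 reads and with 158, 96 and 141 reads. Fgfr2 also had 2, on chromosome 13, and fgf16, fgf17 and spry1 had 1 each.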
